A study of Mus musculus with 8 samples.

Results

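The mitosis genes are a set of 48 genes whose products carry a cell from mitotic entry to cytokinesis. Members were all probe sets (groups of oligonucleotides on the array that together measure 1 transcript) whose gene symbol in the array annotation is 1 of those 48. This gave 111 of 45037 probe sets, for 47 of the 48 genes. No probe set carried the symbol Ccnb1, so that gene was not analysed here. Of the 111 probe sets, 103 were bright enough to be tested, out of 27022 tested in all, and each of the 47 genes kept at least 1. A gene is represented below by its brightest tested probe set unless another is named.

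The series compared mouse cells that carry a GFP reporter of AID (activation-induced cytidine deaminase, which edits antibody genes) and are GFP-positive with those that are GFP-negative. Total RNA was measured on Affymetrix arrays in 4 groups of 2 arrays: BCR-ABL1 Aid-GFP-Reporter cells labelled BM, GFP-positive and GFP-negative, and splenic B cells of Aid-GFP-Reporter mice stimulated with LPS (bacterial lipopolysaccharide) and IL-4 (interleukin 4), GFP-positive and GFP-negative. BCR-ABL1 is the fusion kinase of Philadelphia chromosome leukaemia, and all 4 groups carry the reporter. The sources used here do not give the strain, the age, how BCR-ABL1 was introduced, how long the stimulation lasted, or whether both arrays of a group came from different mice or cultures. The p-values therefore measure the spread between these arrays, which may be technical.

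Mitosis is run by a relay of switches. Cyclin B with its kinase Cdk1 drives entry, the condensin complex and topoisomerase II compact the chromosomes, and motor proteins of the kinesin family build the spindle. The kinetochore ties each chromosome to the spindle, and the checkpoint holds back the anaphase-promoting complex until every kinetochore is attached. Transcripts of most of these genes accumulate late in the cell cycle and are low in resting cells, such as splenic B cells before a mitogen like LPS makes them divide.

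Of the 47 genes, 46 were higher and 1 (Pttg1) was lower in GFP-positive than in GFP-negative spleen arrays (limma, Benjamini-Hochberg adjusted p under 0.05). Over all tested probe sets 78.2% were called in that comparison, 44.9% higher and 33.3% lower, so the count of calls is to be read against that background. The mean of 8 of the 47 genes in spleen GFP-negative arrays lay under the filter for low signals, which they passed through the other arrays. By at least 2-fold, 43 of the 47 genes were higher, against 24.4% of all tested probe sets (18.7% were lower by as much). In 46 genes both GFP-positive arrays lay above both GFP-negative arrays and in 1 below, against 49.1% and 37.0% of all. The median log2 fold change of the 47 genes was 3.48, against 0.17 over all tested probe sets. In BCR-ABL1 cells none of the 47 was called between GFP-positive and GFP-negative arrays, where 2.80% of all tested probe sets were. The median signal of the 47 genes on an array, as log2, ranged from 11.54 to 11.61 in BCR-ABL1 GFP-positive, from 11.51 to 11.53 in BCR-ABL1 GFP-negative and from 11.52 to 11.58 in spleen GFP-positive arrays, and was 8.17 and 8.27 in the spleen GFP-negative arrays.

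**Figure D1:**
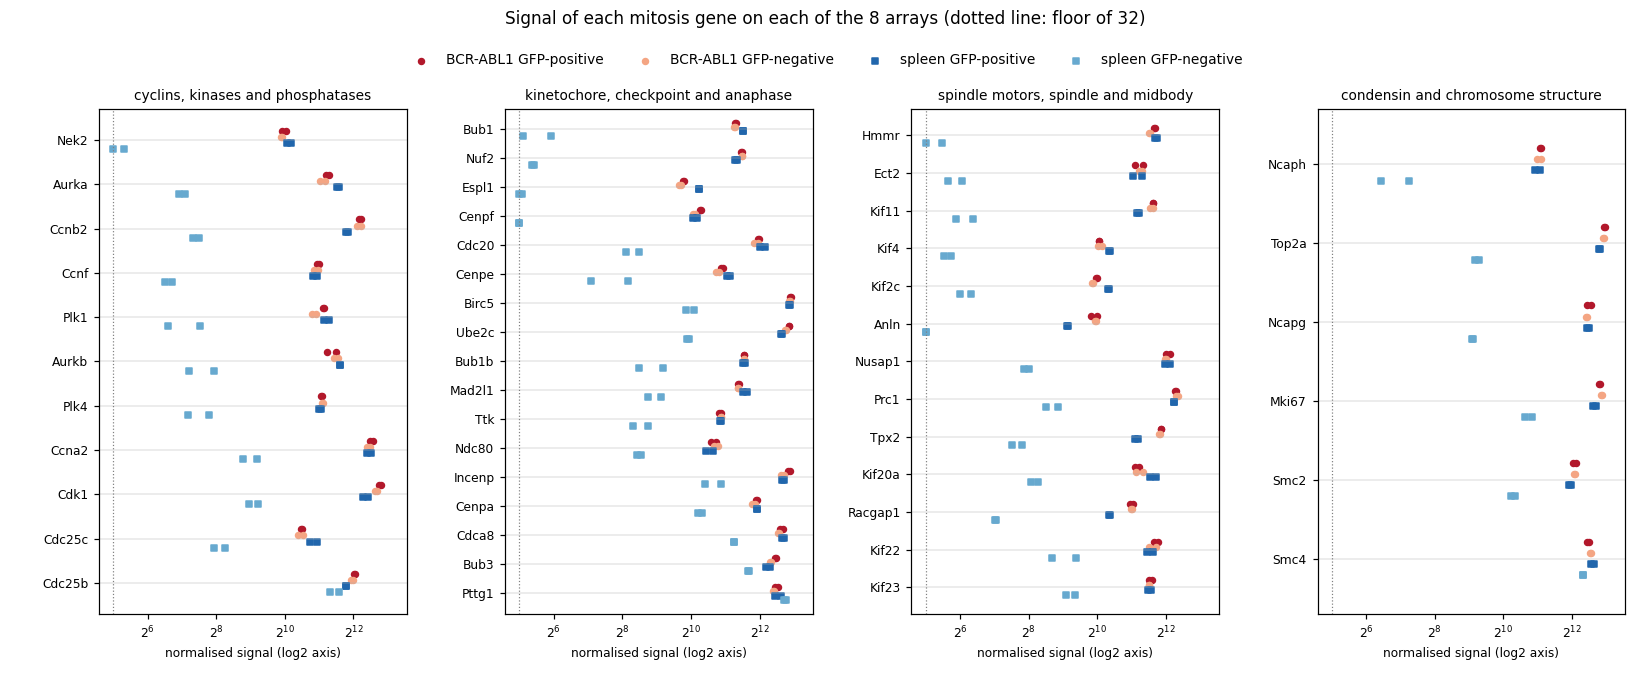
Normalised signal (log2 axis) of the brightest probe set of each of 47 mitosis genes on each array, with 1 point per array and genes sorted within 4 role classes by the spleen difference. The spleen GFP-negative arrays lie to the left of the other 6 for most genes, by least for Smc4, Cdc25b and Bub3, and to the right for Pttg1. Signals of different genes come from different probes and are to be compared within a row only.

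The spleen arrays differed in more than these genes. Of 14 myeloid marker genes, the 12 tested were all lower in spleen GFP-positive arrays, and the summed signal of the 14 ranged from 704 to 715 there, against 85642 to 87568 in GFP-negative arrays. Camp, Ngp, Csf1r, Elane and Itgam were at the floor in both spleen GFP-positive arrays. Of these, Elane and Itgam were not tested, and Itgam was dim in spleen GFP-negative arrays too (47.3 and 33.95). Of the T and NK cell markers, 10 of 10 tested were lower, with sums of 1164 to 1179 in GFP-positive and 16272 to 18068 in GFP-negative arrays. Of 7 B cell markers 2 were called higher (Pax5 and Cd22) and 3 lower, with sums of 38801 to 40612 in GFP-positive and 45925 to 46103 in GFP-negative spleen arrays, and erythroid markers summed to 297.0 to 297.2 in GFP-positive and 290.9 to 311.2 in GFP-negative ones. In BCR-ABL1 arrays the B cell markers summed to 30612 to 31149 (GFP-positive) and 31731 to 32033 (GFP-negative), and the myeloid ones to 1116 to 1180 (GFP-positive) and 923 to 1026 (GFP-negative). Markers of pre-B cells summed to 34070 to 35153 in BCR-ABL1 GFP-positive, 33607 to 34772 in BCR-ABL1 GFP-negative, 1052 to 1436 in spleen GFP-positive and 6628 to 7141 in spleen GFP-negative arrays. Between the spleen groups 1 of these 7 was called higher (Vpreb1) and 4 lower, and Il7r had a mean of 36.6 in GFP-positive and 4566 in GFP-negative arrays. Spleen GFP-positive arrays also had lower 3′ to 5′ signal ratios of the control transcripts Gapdh (1.44, against 1.91 in spleen GFP-negative arrays) and Actb (1.29, against 1.51) and a higher trimmed mean signal as deposited (591, against 487). The part of these differences in the results on mitosis genes was not tested. In bulk RNA such as this, fewer cells of a type and less RNA per cell cannot be told apart.

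The 250 bases before the gene start were examined as a description of the gene set, whatever the array values of its genes. A part of these sequences in the spleen differences was not tested. The RefSeq promoter table used (GRCm38.p6) matched 41 of the 48 genes, with 44 promoters. Aurkb, Ccna2, Cdc25c, Incenp, Kif20a, Smc4 and Tpx2 were not matched in that table. Searched on both strands were TTTGAA (the cell cycle genes homology region, or CHR, which the DREAM and MuvB complexes bind), CCAAT (the box bound by NF-Y) and TTTNGCGC (a string like the sites of E2F factors), and no matches of different motifs overlapped. The promoters of Hmmr, Bub1 and Nuf2, the genes with the largest spleen differences, of Ccnb2 and Cdc20, which hold both CHR and CCAAT, and of Pttg1, the gene that was lower, are shown 5′ to 3′ on the gene's strand with matches in capitals.
Hmmr (chr11:40733438-40733687, minus strand): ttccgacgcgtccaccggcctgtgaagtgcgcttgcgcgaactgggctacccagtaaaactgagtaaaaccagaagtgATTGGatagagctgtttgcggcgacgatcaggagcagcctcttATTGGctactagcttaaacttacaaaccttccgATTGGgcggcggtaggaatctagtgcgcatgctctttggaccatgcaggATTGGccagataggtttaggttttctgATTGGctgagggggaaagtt
Bub1 (chr2:127831860-127832109, minus strand): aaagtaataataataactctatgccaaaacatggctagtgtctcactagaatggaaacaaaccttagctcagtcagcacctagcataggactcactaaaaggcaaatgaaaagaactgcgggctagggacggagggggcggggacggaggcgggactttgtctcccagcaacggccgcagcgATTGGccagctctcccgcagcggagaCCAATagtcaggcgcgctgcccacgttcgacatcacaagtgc
Nuf2 (chr1:169531465-169531714, minus strand): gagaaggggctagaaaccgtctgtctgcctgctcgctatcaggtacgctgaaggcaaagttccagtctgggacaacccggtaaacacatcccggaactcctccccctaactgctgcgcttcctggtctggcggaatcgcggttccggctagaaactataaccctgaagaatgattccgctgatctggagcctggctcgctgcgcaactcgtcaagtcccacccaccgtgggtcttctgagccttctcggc
Ccnb2 (chr9:70421555-70421804, minus strand): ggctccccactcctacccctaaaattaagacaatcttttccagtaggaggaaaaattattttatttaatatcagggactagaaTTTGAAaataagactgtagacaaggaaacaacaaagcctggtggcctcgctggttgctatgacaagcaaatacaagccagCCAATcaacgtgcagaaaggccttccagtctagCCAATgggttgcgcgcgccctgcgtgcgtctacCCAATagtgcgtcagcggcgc
Cdc20 (chr4:118437344-118437593, minus strand): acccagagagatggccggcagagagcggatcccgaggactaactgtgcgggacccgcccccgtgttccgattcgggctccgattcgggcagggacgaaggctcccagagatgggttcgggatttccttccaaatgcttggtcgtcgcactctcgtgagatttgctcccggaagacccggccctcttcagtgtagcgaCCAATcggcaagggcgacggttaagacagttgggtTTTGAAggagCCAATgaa
Pttg1 (chr11:43425982-43426231, minus strand): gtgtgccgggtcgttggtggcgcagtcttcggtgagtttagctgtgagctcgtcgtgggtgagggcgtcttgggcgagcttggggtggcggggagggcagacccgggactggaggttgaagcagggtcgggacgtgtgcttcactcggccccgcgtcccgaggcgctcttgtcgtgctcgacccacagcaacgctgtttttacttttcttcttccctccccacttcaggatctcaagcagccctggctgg

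The CCAAT string stood in 34 of the 44 member promoters (77.3%), against 33.8% of all 32851 promoters in the table and 35.4% of the 21263 of protein-coding genes. At least 2 places held it in 21 of the 44 (47.7%), against 10.1% and 11.4%. The TTTGAA string stood in 18 (40.9%), against 16% and 14.5%, and both strings in 17 (38.6%), against 5.55% and 5.23%. The TTTNGCGC string was found in 2 (4.55%, Cdk1 and Racgap1), against 1.13% and 1.43%. Hmmr held CCAAT at 5 places, all on the opposite strand, while Nuf2 and Pttg1 held none of the 3 strings in this window. These are matches of letters, and bases after the gene start, where such elements also occur, were not searched.

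Among cyclins, kinases and phosphatases, all 11 measured genes were higher in spleen GFP-positive arrays (10 by at least 2-fold), with a median log2 fold change of 4.04. Ccnb2, a partner of Cdk1 at mitotic entry, had signals of 3495 and 3689 in spleen GFP-positive arrays, against 180.5 and 162 in spleen GFP-negative arrays, 21-fold higher (log2 4.39 ± 0.076, SE, adjusted p = 1.21e-08). Cdk1 itself had 4972 and 5480.1 in spleen GFP-positive and 496 and 596 in spleen GFP-negative arrays (3.26 ± 0.089). In neither gene did the arrays of the 2 groups overlap, and the gap between groups was many times that between arrays of a group. Polo-like kinase 1 (Plk1), which acts at centrosomes, kinetochores and the midzone, had 2248 and 2492 in GFP-positive and 97.2 and 183 in GFP-negative arrays (4.15 ± 0.25). Aurka, the spindle pole kinase, had 2919 and 3059 in GFP-positive and 135 and 121 in GFP-negative arrays (4.55 ± 0.091), and Aurkb, the kinase of the chromosomal passenger complex, 3101 and 3094 in GFP-positive and 244 and 146 in GFP-negative arrays (4.04 ± 0.21). Both Aurora kinases thus rose by over 4 log2 units. The largest difference of the class was that of the centrosome kinase Nek2, with 1161 and 1062 in GFP-positive and 40.1 and 32 in GFP-negative arrays (4.96 ± 0.13). The second of those 2 low values is the floor of 32, so the fold of Nek2 rests in part on the floor. Ccnf, a cyclin that is part of a ubiquitin ligase (4.26 ± 0.10), the centriole kinase Plk4 (3.54 ± 0.17), Ccna2, the cyclin of S phase and G2 (3.49 ± 0.12), and the Cdk1-activating phosphatase Cdc25c (2.73 ± 0.13) rose as well.

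Cdc25b, the phosphatase that starts Cdk1 activation, stood apart from the class. Its signals were 3540.4 and 3528 in spleen GFP-positive arrays, against 3045 and 2532 in spleen GFP-negative arrays (0.35 ± 0.08, adjusted p = 0.00399). The arrays of the 2 groups did not overlap, and the difference was 1.27-fold. Its size depended on the scale and on single arrays: the log2 fold change was 0.60 on the deposited scale, 0.76 after a shift to equal medians, 0.48 without spleen GFP-negative replicate 1 and 0.21 without spleen GFP-negative replicate 2.

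Of 17 genes of the kinetochore, the checkpoint and anaphase, 16 were higher and 1 was lower in spleen GFP-positive arrays (median 2.70), 15 higher by at least 2-fold. The largest differences were those of the checkpoint kinase Bub1, with 2944 and 2930.4 in GFP-positive and 60.3 and 34.3 in GFP-negative arrays (6.01 ± 0.22), and of Nuf2, a subunit of the NDC80 complex that grips microtubules, with 2611 and 2499.8 in GFP-positive and 43 and 40.9 in GFP-negative arrays (5.93 ± 0.076). Espl1, the separase that cuts cohesin, had 1197 and 1199 in GFP-positive and 32 and 33.4 in GFP-negative arrays (5.20 ± 0.099). Cenpf, a large kinetochore protein, had 1161 and 1067 in GFP-positive arrays and was at the floor of 32 in both GFP-negative arrays. By this probe set it was at least 34.8-fold higher, but the lowest log2 fold change of its 3 tested probe sets was 1.56. In these 4 genes the spleen GFP-negative arrays lay at or near the floor.

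The other NDC80 subunit measured, Ndc80, differed by less than Nuf2, with 1399 and 1596 in GFP-positive and 342 and 376 in GFP-negative arrays (2.06 ± 0.10). Cdc20, which activates the anaphase-promoting complex, had 4091 and 4547 in GFP-positive and 358 and 278 in GFP-negative arrays (3.77 ± 0.12), and Ube2c, the ubiquitin-conjugating enzyme of that complex, 6304 and 6423 in GFP-positive and 950.3 and 991 in GFP-negative arrays (2.71 ± 0.042). All 3 were called and their groups did not overlap. The checkpoint genes Bub1b (2.70 ± 0.19), Mad2l1 (2.64 ± 0.12) and Ttk (2.34 ± 0.13) rose by similar amounts, and the kinetochore motor Cenpe by 3.47 ± 0.29. Of the chromosomal passenger complex, Birc5 (survivin) rose by 2.89 ± 0.066, Incenp by 2.03 ± 0.13 and Cdca8 (borealin) by 1.44 ± 0.044. Cenpa, the histone that marks centromeres, had 3873 and 3865 in GFP-positive and 1271 and 1177 in GFP-negative arrays (1.66 ± 0.056). Bub3, which also has roles outside the checkpoint, had 5007 and 4690.2 in GFP-positive and 3272 and 3240.1 in GFP-negative arrays (0.57 ± 0.045).

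Pttg1, the securin that holds separase inactive, was the exception. It had 5639 and 6303 in spleen GFP-positive arrays, against 6662 and 6915 in spleen GFP-negative arrays (-0.19 ± 0.058, adjusted p = 0.017). The groups did not overlap, though the difference was little more than the gap between the 2 GFP-positive arrays. The call was lost on the deposited scale (-0.08, adjusted p = 0.188), and with arrays shifted to the same median the sign turned (0.08, adjusted p = 0.167). Leaving out spleen GFP-positive replicate 1 (adjusted p = 0.0982) or spleen GFP-negative replicate 2 (adjusted p = 0.107) lost it too, as did testing without a filter (adjusted p = 0.0626) and eBayes without trend (adjusted p = 0.081). A second probe set of Pttg1 was not called (0.08 ± 0.089, adjusted p = 0.409), and the other was lower (-0.81 ± 0.16, adjusted p = 0.00177). None of the 3 probe sets of Pttg1 was called higher in spleen GFP-positive arrays.

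All 13 genes of spindle motors, the spindle and the midbody were higher by at least 2-fold in spleen GFP-positive arrays (median 4.11). Hmmr, a spindle protein that is also a hyaluronan receptor, had 3406 and 3298 in GFP-positive and 44.5 and 32 in GFP-negative arrays, the largest log2 fold change of the 47 genes (6.47 ± 0.14), with 1 GFP-negative array at the floor. Ect2, the exchange factor that activates RhoA for cytokinesis, had 2515 and 2099 in GFP-positive and 66.6 and 50.1 in GFP-negative arrays (5.31 ± 0.16). Kif11, the motor that pushes spindle poles apart, had 2371 and 2305 in GFP-positive and 58.9 and 83.1 in GFP-negative arrays (5.06 ± 0.15). Neither gene's groups overlapped. Anln, a scaffold of the contractile ring, had 563 and 551 in GFP-positive arrays and was at the floor in both GFP-negative arrays. By this probe set it was at least 17.4-fold higher, but its other tested probe set gave a log2 fold change of 1.23. Among other kinesins, the chromosome motor Kif4 (4.73 ± 0.11) and the microtubule depolymerase Kif2c (4.16 ± 0.13) rose most by the brightest probe sets. Behind them were Kif20a (3.46 ± 0.11), a motor of the central spindle, and Kif22 (2.49 ± 0.20), a motor on chromosome arms. Kif23 (2.30 ± 0.094) is a part of centralspindlin with Racgap1 (3.32 ± 0.078). This order depended on the probe set: Kif23 had 4.26 by its other one, Kif22 reached 3.81, and those of Kif2c ran from 0.28 to 4.16. The microtubule proteins Nusap1 (4.11 ± 0.081), Prc1 (3.55 ± 0.099), which bundles the midzone, and Tpx2 (3.48 ± 0.099), an activator of Aurora A, rose too.

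The 6 condensin and chromosome genes were all higher in spleen GFP-positive arrays, 5 by at least 2-fold (median 2.64). The condensin I subunit Ncaph had 1925 and 2125 in GFP-positive and 86.9 and 152 in GFP-negative arrays (4.14 ± 0.22). Ncapg, another, had 5539.8 and 5827 in GFP-positive and 557 and 541 in GFP-negative arrays (3.37 ± 0.056). By the brightest probe sets both differed more than the ATPase subunits that condensins I and II share. Smc2 had 3974 and 3856 in GFP-positive and 1297 and 1197 in GFP-negative arrays (1.65 ± 0.059), and Smc4 6379.7 and 6057 in GFP-positive and 5112 and 5094 in GFP-negative arrays (0.28 ± 0.04). The 5 tested probe sets of Smc2 ran from -0.93 to 2.97, the 2 of Ncapg from 3.37 to 4.52 and the 2 of Ncaph from 4.14 to 5.45. Smc4 thus kept most of its signal in the GFP-negative arrays. Topoisomerase II alpha, Top2a, had 7041 and 7160.5 in GFP-positive and 582 and 624 in GFP-negative arrays (3.56 ± 0.049). Mki67, the gene of the Ki-67 proliferation antigen, had 6219 and 6609 in GFP-positive and 1569 and 1836 in GFP-negative arrays (1.92 ± 0.072).

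The other probe sets of a gene did not always show the same difference. Of the 47 genes, 32 had several tested probe sets, and in 23 of these all were called in the same direction in the spleen comparison. In 6 genes (Bub1b, Cenpa, Hmmr, Kif11, Kif2c and Pttg1) some were not called, and in Top2a, Smc2 and Incenp 1 probe set was called lower while the brightest was higher. For Top2a that probe set had 302 and 286 in GFP-positive and 498 and 438 in GFP-negative arrays (-0.67 ± 0.14), and for Smc2 it had 217 and 185 in GFP-positive and 519 and 281 in GFP-negative arrays (-0.93 ± 0.28). For Incenp it had 69.5 and 71.5 in GFP-positive and 97.6 and 144 in GFP-negative arrays (-0.75 ± 0.19). These 3 were dim beside the brightest probe set of their gene.

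The size of the difference also depended on the probe set. In 24 of the 32 genes the highest and lowest log2 fold change lay over 1 apart, in 12 over 2, and the median spread was 1.36. Cdca8 had 1.44 ± 0.044 by its brightest probe set but 4.78 ± 0.29 and 4.36 ± 0.093 by its other 2. Kif11 had 1 probe set with 714 and 745 in GFP-positive and 834 and 684 in GFP-negative arrays (-0.05 ± 0.13), while its other 2 gave 5.06 ± 0.15 and 5.43 ± 0.097. For Smc4 all 3 probe sets showed small differences (0.28 ± 0.04, 0.42 ± 0.056 and 0.76 ± 0.086), as did the brightest 2 of Bub3 (0.57 ± 0.045 and 0.66 ± 0.08). The 4 tested probe sets of Bub3 were all called higher, and their values ran up to 1.95. Of the 103 tested probe sets, 23 have names ending in _s_at or _x_at, which marks probes that can match other transcripts, and 22 of those were called higher (1 lower). By such a probe set 10 of the 47 genes are represented, so their values are less certain.

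**Figure D2:**
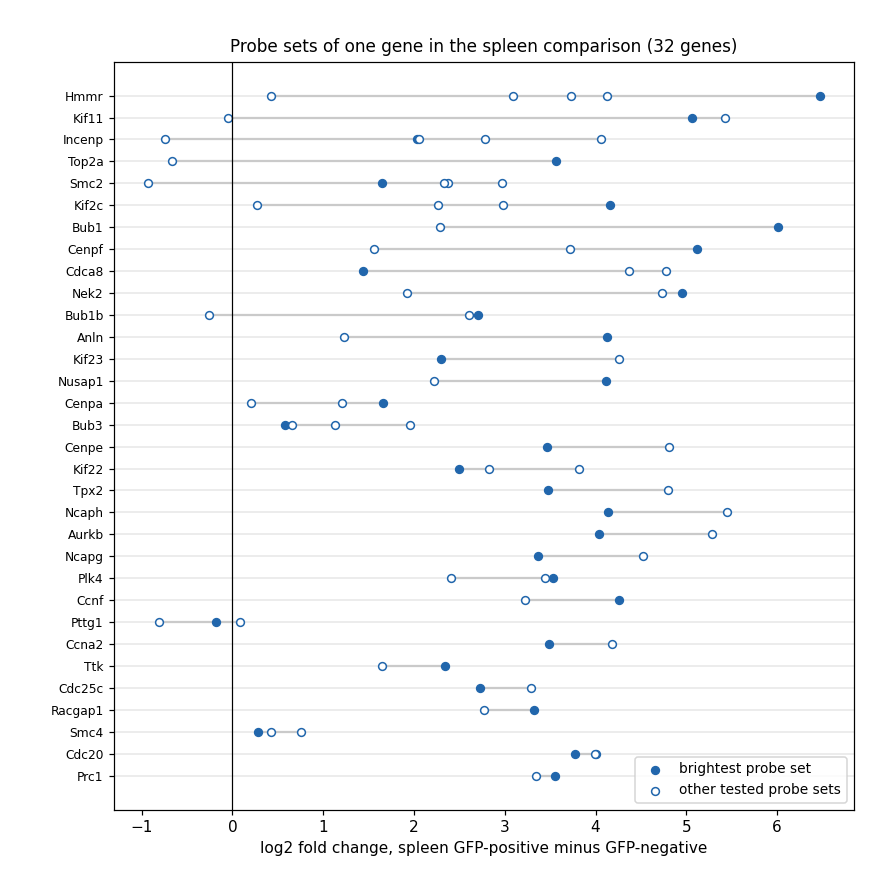
Log2 fold change (spleen GFP-positive minus GFP-negative) of every tested probe set of the 32 mitosis genes with several, with 1 point per probe set, filled for the brightest. Genes run from the smallest spread at the bottom to the largest (Hmmr, 0.43 to 6.47) at the top.

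In BCR-ABL1 cells limma called 0 of the 47 genes between the GFP fractions, where 1.57% of all tested probe sets were higher and 1.23% lower. Mki67 had 7105 and 7175 in BCR-ABL1 GFP-positive arrays, against 7489.7 and 7336 in BCR-ABL1 GFP-negative arrays (-0.05 ± 0.072, adjusted p = 0.96). Top2a had 8032 and 7755 in GFP-positive and 7887 and 7679 in GFP-negative arrays (0.02 ± 0.049), and Ccnb2 4562 and 4727 in GFP-positive and 4421 and 4734 in GFP-negative arrays (0.02 ± 0.076). For Top2a and Ccnb2 the arrays of the fractions overlapped, and for Mki67 both GFP-positive arrays were lower. Nuf2, which differed by almost 6 log2 units in the spleen, had 2873 and 2823 in BCR-ABL1 GFP-positive and 2853 and 2839.8 in GFP-negative arrays (0.00 ± 0.076). An unadjusted p under 0.05 was reached by 2 genes, Bub3 (0.14 ± 0.045, adjusted p = 0.21) and Ube2c (0.11 ± 0.042, adjusted p = 0.326). The point estimate was largest for Plk1, with 2195 and 2276 in GFP-positive and 1786 and 1909.8 in GFP-negative arrays (0.28 ± 0.25, adjusted p = 0.866), whose arrays did not overlap. These SE values pool the spread of all 4 groups, which was unequal. The median log2 gap between the 2 arrays of a group, over the 47 genes, was 0.27 in spleen GFP-negative arrays. It was 0.048 in BCR-ABL1 GFP-positive, 0.039 in BCR-ABL1 GFP-negative and 0.073 in spleen GFP-positive arrays. Fitted on the 4 BCR-ABL1 arrays alone, 2 of the 47 genes passed, Plk1 (0.27, adjusted p = 0.0167) and Incenp (0.19, adjusted p = 0.0256). In that fit 7.99% of all tested probe sets were called.

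The intervals bound the differences between these BCR-ABL1 arrays, by the brightest probe set of each gene and a spread pooled over the 4 groups. Since that spread may be technical, they need not bound differences between the cell fractions. The 95% intervals of all 47 genes lay within 2-fold in either direction, and those of 44 within 1.5-fold. The lowest bound was -0.62 (Aurkb) and the highest 0.85 (Plk1) on the log2 scale. The median of the 47 genes was 0.049, against -0.0023 over all tested probe sets, and 35 had a positive and 12 a negative value. In 21 genes both GFP-positive arrays lay above both GFP-negative arrays and in 4 below, where over all tested probe sets the shares were 23.6% and 22.8%. The genes share their 4 arrays, so these counts are no test.

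**Figure D3:**
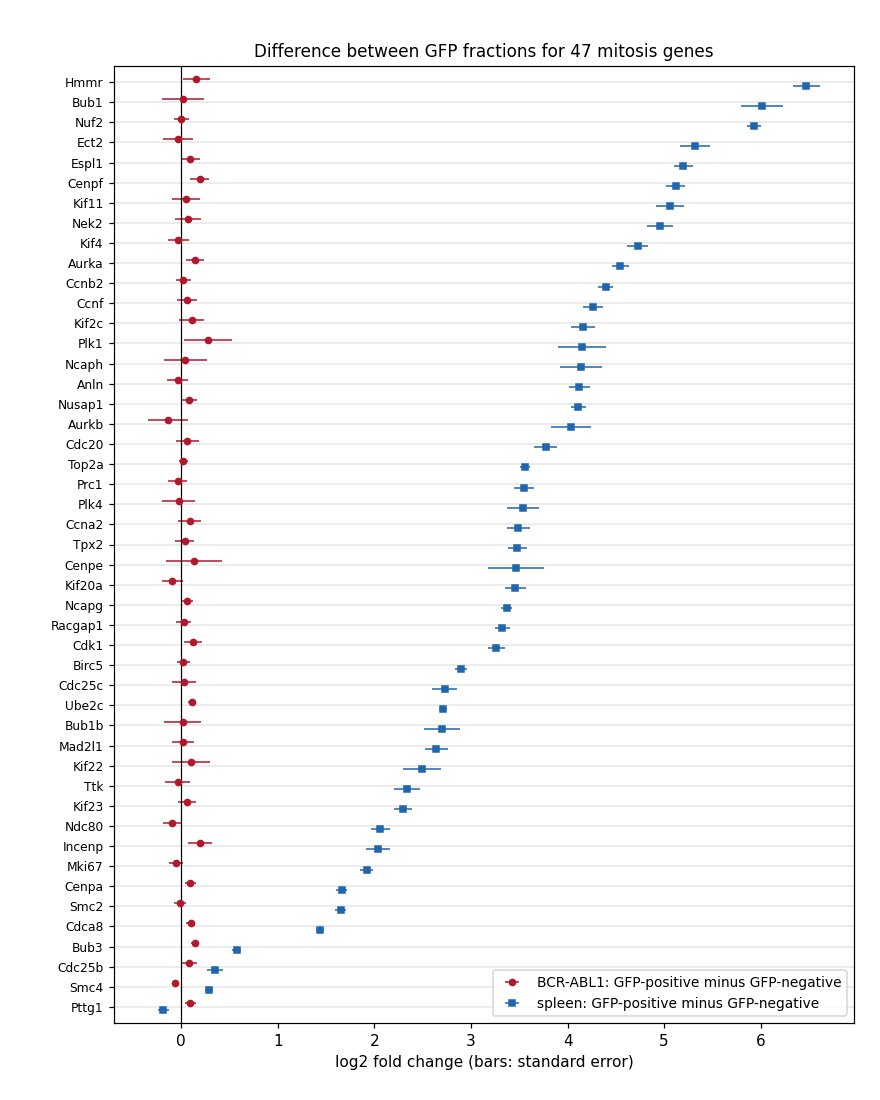
Log2 fold change between GFP-positive and GFP-negative arrays with its standard error for 47 mitosis genes, in BCR-ABL1 cells (red circles) and in the spleen (blue squares), sorted by the spleen value. BCR-ABL1 values lie between -0.14 and 0.28, and spleen values between -0.19 and 6.47.

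The difference between the sources in the GFP effect was tested as an interaction, BCR-ABL1 minus spleen. It was called for 46 of the 47 genes, 45 negative and 1 positive (Pttg1), where 69.8% of all tested probe sets were called, 40.3% negative and 29.5% positive. The median interaction of the 47 genes was -3.45, against -0.18 over all tested probe sets. By at least 2-fold, 43 of the 47 were negative, against 24.4% of all (18.6% were positive). The gene without a call was Cdc25b (-0.27 ± 0.11, adjusted p = 0.0644). It was called on the deposited scale (-0.53, adjusted p = 0.00882), after a shift to equal medians (-0.67, adjusted p = 0.00312), with the replicate number as a block (adjusted p = 0.0352) and without spleen GFP-negative replicate 1 (-0.40, adjusted p = 0.0012).

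Most mitosis genes were not called between the GFP-positive groups of the 2 sources. Of the 47 genes, 10 were higher and 4 lower in BCR-ABL1 GFP-positive arrays, 29.8% in all, below the 44.0% of all tested probe sets (22.4% higher, 21.6% lower). None of the 14 differed by 2-fold or more by the brightest probe set, whereas 7.95% and 5.97% of all tested probe sets were called higher and lower by at least that. Of the 103 tested probe sets of the 47 genes, 16 were higher and 10 lower (25.2%). Among them 1, of Bub3, was higher by at least 2-fold (1.07). In 15 of the 32 genes with several tested probe sets, some were called and others were not. The median of the 47 was 0.042, against -0.026 over all. Only Anln had a 95% interval that reached past 2-fold (0.54 to 1.05), and the intervals of 32 genes lay within 1.5-fold. In 20 genes both BCR-ABL1 arrays lay above both spleen arrays and in 13 below, against 36.0% and 41.2% of all.

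Of the 13 genes of spindle motors, the spindle and the midbody, 4 were higher and 1 lower in BCR-ABL1 GFP-positive arrays. That is 38.5%, against 44.0% of all tested probe sets. Anln had 1023 and 912 in BCR-ABL1 GFP-positive arrays, against 563 and 551 in spleen GFP-positive arrays (0.79 ± 0.11, adjusted p = 0.000606), and its other probe set agreed in size (0.79 ± 0.14). Tpx2 had 3716 and 3682 in BCR-ABL1 and 2317 and 2183 in spleen GFP-positive arrays (0.72 ± 0.099, adjusted p = 0.000611), but its other tested probe set was not called (-0.18 ± 0.17, adjusted p = 0.462). Racgap1 had 2001 and 2126 in BCR-ABL1 and 1292 and 1331 in spleen arrays (0.65 ± 0.078, adjusted p = 0.000279), and again its other probe set was not called (0.09 ± 0.12). Of these 3 genes, Anln alone was called by each of its tested probe sets. Kif11 (0.44 ± 0.15), Cdk1 (0.42 ± 0.089), Ccnb2 (0.37 ± 0.076), Cdc25b (0.25 ± 0.08), Ube2c (0.22 ± 0.042), Bub3 (0.21 ± 0.045) and Top2a (0.15 ± 0.049) were higher by less. Kif11 was called by 1 of its 3 tested probe sets, Bub3 by 2 of 4 and Top2a by 1 of 2 (the other -0.25).

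The 4 genes lower in BCR-ABL1 GFP-positive arrays were Kif20a, Espl1, Aurka and Smc4. Kif20a had 2178 and 2366 in BCR-ABL1 GFP-positive arrays, against 2999 and 3343 in spleen GFP-positive arrays (-0.48 ± 0.11, adjusted p = 0.00734). Espl1 had 884 and 875 in BCR-ABL1 and 1197 and 1199 in spleen arrays (-0.45 ± 0.099, adjusted p = 0.00741), and Aurka 2349 and 2506 in BCR-ABL1 and 2919 and 3059 in spleen arrays (-0.30 ± 0.091, adjusted p = 0.0288). In all 3 both BCR-ABL1 arrays lay below both spleen arrays. Smc4 differed by -0.13 ± 0.04, but its other 2 tested probe sets were not called, with values up to 0.09. The calls between the GFP-positive groups depended on single arrays and on the choice of arrays, and so did those over all tested probe sets. In a fit of the 4 GFP-positive arrays alone, 56.7% of all tested probe sets were called, against 44.0% with all 8 arrays. Without single arrays that share moved in the same direction as the count of mitosis genes. The count of 14 became 6 and 8 without BCR-ABL1 GFP-positive replicates 1 and 2, and 9 and 8 without spleen GFP-positive replicates 1 and 2. It became 23 and 22 without spleen GFP-negative replicates 1 and 2, and 23 (13 higher, 10 lower) in a fit of the 4 GFP-positive arrays alone. Anln, Racgap1, Cdk1, Ccnb2 and Ube2c kept their call under each alternative tried, with largest adjusted p of 0.0126, 0.00673, 0.0482, 0.0472 and 0.0403.

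**Figure D4:**
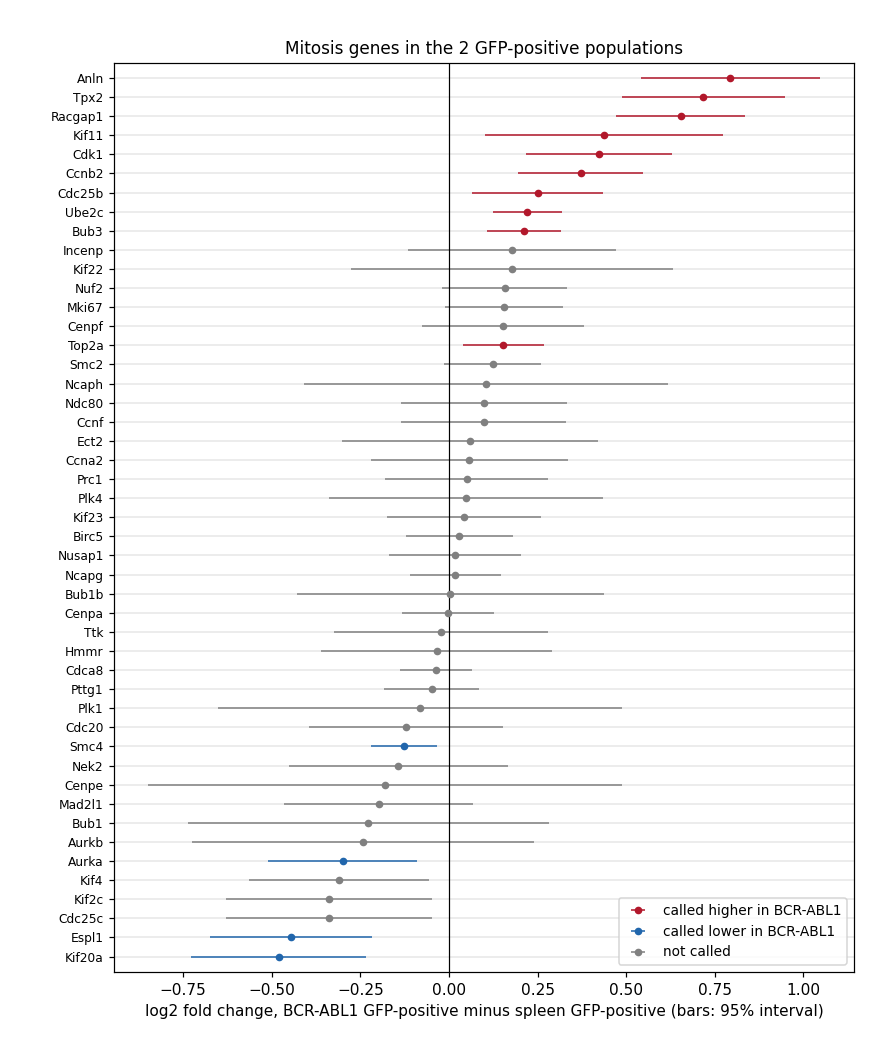
Log2 fold change, BCR-ABL1 GFP-positive minus spleen GFP-positive, with its 95% interval for 47 mitosis genes, coloured by call. Values run from -0.48 (Kif20a) to 0.79 (Anln), with 33 genes not called.

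Against spleen GFP-negative arrays, BCR-ABL1 GFP-negative arrays had 46 of the 47 genes higher and Pttg1 lower (-0.33 ± 0.058), with 78.9% of all tested probe sets called (45.5% higher, 33.4% lower). By at least 2-fold, 43 genes were higher, against 25.9% of all (19.1% lower). The arrays did not overlap in any gene, 46 above and 1 below, against 50.1% and 37.5% of all. This comparison shares the spleen GFP-negative arrays with the GFP effect in the spleen, so the 2 sets of values are not independent. Hmmr had 2972 and 2904 in BCR-ABL1 GFP-negative arrays (6.28 ± 0.14), Nuf2 2853 and 2839.8 (6.09 ± 0.076) and Smc4 5931 and 5954 (0.22 ± 0.04), against the spleen GFP-negative values given above.

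A wider list of 104 other mitosis genes, 102 of them tested, was set beside the 47. In the spleen 83 were higher, 8 lower and 11 not called (median 1.75), where 44.9% of all tested probe sets were higher and 33.3% lower (median 0.17). Cdkn3, a phosphatase that acts on cyclin-dependent kinases, had 1979 ± 2.85 in GFP-positive and 39.8 ± 7.04 in GFP-negative arrays (SD, n = 2; 5.65 ± 0.12). Cdca5, the sororin that protects cohesin (5.59 ± 0.17), and Mybl2, a transcription factor of G2 and M phase genes (5.44 ± 0.13), rose too. In spleen GFP-negative arrays Cdkn3 and Mybl2 lay under the filter value of 51.0 (Mybl2 with 1 array at the floor), so these folds and the order of the 3 genes depend on the floor. Genes that fell included Kif15, a spindle kinesin (-3.31 ± 0.23), the ubiquitin-conjugating enzyme Ube2d1 (-1.13 ± 0.10) and the spindle pole protein Numa1 (-0.81 ± 0.068). Kif15 had 35.8 ± 3.39 in spleen GFP-positive and 356 ± 61.8 in spleen GFP-negative arrays, and was similarly low in BCR-ABL1 arrays (44.2 ± 4.54 in GFP-positive, 40.7 ± 12.3 in GFP-negative). Its mean was over the filter value in spleen GFP-negative arrays alone, and its fold too depends on the floor.

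The roles in this wider list differed in size. The 30 other kinetochore and centromere genes had a median of 3.27 in the spleen, with 27 higher and 0 lower. The 27 other motor, spindle and cytokinesis genes had a median of 2.18 (24 higher, 3 lower), and the 16 mitotic regulators one of 2.31 (15 higher, 0 lower). The 15 genes of the anaphase-promoting complex had a median of 0.55, with 10 higher and 1 lower. The 14 other condensin, cohesin and topoisomerase genes had one of 0.27, with 7 higher and 4 lower, or 78.6% called, against 78.2% of all tested probe sets.

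In BCR-ABL1 cells 1 of the 102 was called, against 2.80% of all tested probe sets. It was Cdc25a, a phosphatase that activates cyclin-dependent kinases, with 1587 ± 32 in GFP-positive and 1087 ± 2.47 in GFP-negative arrays (SD, n = 2; 0.55 ± 0.08, adjusted p = 0.0118). Between BCR-ABL1 and spleen GFP-positive arrays 21 were higher and 15 lower, or 35.3%, against 44.0% of all tested probe sets. They were led by the kinase gene Pbk (1.20 ± 0.083), the microtubule depolymerase Kif2a (1.07 ± 0.16) and Fbxo5 (0.78 ± 0.10), an inhibitor of the anaphase-promoting complex, and by Mybl2 (-0.95 ± 0.13), Wapl (-0.85 ± 0.088), which releases cohesin, and Melk (-0.82 ± 0.13).

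**Figure D5:**
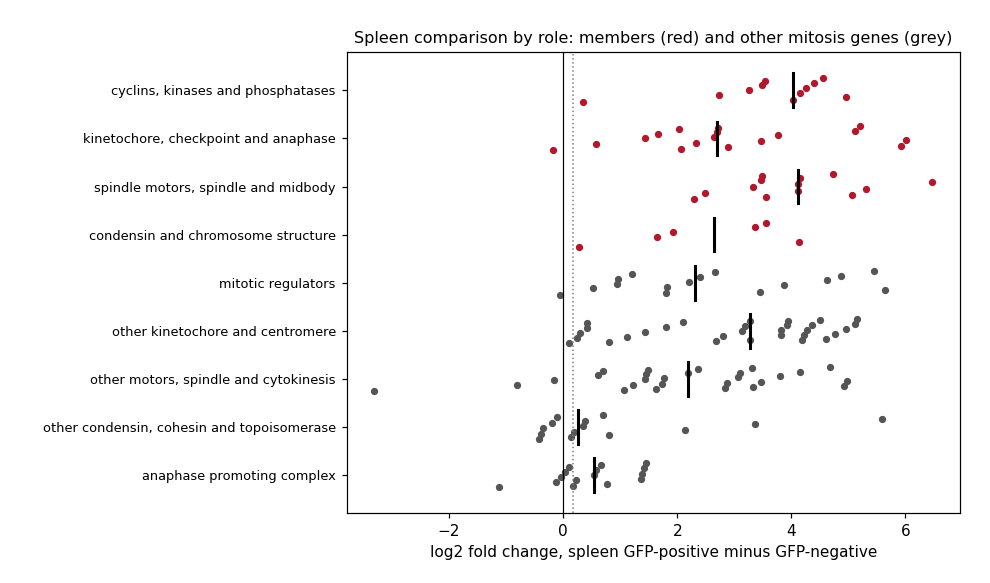
Log2 fold change (spleen GFP-positive minus GFP-negative) of the 47 mitosis genes in 4 role classes (red) and of 102 other mitosis genes in 5 (grey), with 1 point per gene and a black bar at each median. The dotted line marks the median of all tested probe sets (0.17), and the anaphase-promoting complex and cohesin genes lie nearest to it.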

How the data were processed

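Values are linear intensities that the authors deposited, with GCOS 1.3 per the submitters' processing notes. Probe summary, scaling and the purification of cells are not stated in the sources used here. Without 64 control probe sets there were 45037 (34945 with 1 symbol in the 2016 array annotation, 932 with several, 9160 with none). The Entrez IDs of all 111 member probe sets matched RefSeq and changed 0 symbols.

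Arrays were quantile normalized, values under 32 set to 32, and log2 taken. Probe sets with a mean log2 below the 40th percentile (5.67, or 51.0 in signal) were left untested. The 27022 others were fitted on 8 arrays with limma 3.58.1 in R 4.3.3 (1 mean per group, eBayes with trend, 4 residual degrees of freedom), adjusted by Benjamini-Hochberg, and called under 0.05. The code was tested on simulated data. Values in brackets after a signal are log2 fold changes ± SE (n = 2 arrays a group). Exact permutation of 2 against 2 arrays cannot give a p under 0.333, so calls rest on the model. The number of arrays limits the precision. The 4 groups share 1 estimate of the spread, so the spleen GFP-negative arrays enter the SE of every contrast. By group mean all 47 genes lay over the filter value in 3 groups and 39 in the spleen GFP-negative arrays, so 8 passed through the other arrays and had to be low there; a fit without a filter called 46 of 47. The members, the lists and the tests were chosen with earlier results of these data known. Any member could be named. Of other mitosis genes, the 3 largest called changes in each direction were, and 24 members have their interaction printed (3 largest and 3 smallest in each class).

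Alternatives were the deposited scale, equal medians, a floor of 16 or 64, adding 32 before log2, a 60th percentile filter or none, eBayes robust or without trend, each gene by its brightest probe set or by their mean, the replicate number as a block, leaving out each array, and the 4 arrays of a source or fraction alone.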

Additional observations from a re-analysis of the deposited data

Results flagged for a closer look

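The GFP effect differed between the sources, by the interaction term of limma (BCR-ABL1 minus spleen, adjusted p under 0.05), in 46 of the 47 mitosis genes, against 69.8% of all tested probe sets. A negative value means a smaller rise, or no rise, with GFP in BCR-ABL1 cells than in the spleen. Values are log2 ± SE from 8 arrays, and in 45 of the 46 genes the sign was negative. Among cyclins, kinases and phosphatases the largest were Nek2 (-4.88 ± 0.19), Aurka (-4.41 ± 0.13) and Ccnb2 (-4.37 ± 0.11), and the smallest called were Cdk1 (-3.14 ± 0.13) and Cdc25c (-2.70 ± 0.18). In the kinetochore, checkpoint and anaphase class the largest were Bub1 (-6.00 ± 0.31), Nuf2 (-5.93 ± 0.11) and Espl1 (-5.10 ± 0.14), and the smallest Cdca8 (-1.34 ± 0.062), Bub3 (-0.43 ± 0.064) and Pttg1 (0.28 ± 0.081). For spindle motors, the spindle and the midbody they were Hmmr (-6.32 ± 0.20), Ect2 (-5.35 ± 0.22) and Kif11 (-5.01 ± 0.21), and at the low end Racgap1 (-3.30 ± 0.11), Kif22 (-2.39 ± 0.28) and Kif23 (-2.24 ± 0.13). The condensin and chromosome genes gave Ncaph (-4.09 ± 0.31), Top2a (-3.54 ± 0.07), Ncapg (-3.31 ± 0.079), Mki67 (-1.97 ± 0.10), Smc2 (-1.66 ± 0.083) and Smc4 (-0.35 ± 0.057). All are values of the brightest probe sets, and the order depended on that choice. Interactions ran from -4.77 to -1.34 over the probe sets of Cdca8, from -1.99 to -0.31 for Bub3 and from -6.00 to -2.18 for Bub1. The 2 probe sets of Top2a were called in opposite directions (-3.54 and 0.57).

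The interaction of Pttg1 was not called on the deposited scale (adjusted p = 0.0716), after a shift to equal medians (0.852), without a filter (0.0616), with eBayes without trend (0.0766), without BCR-ABL1 GFP-positive replicate 2 (0.063) or without spleen GFP-negative replicate 2 (0.0675). The other called genes in the 4 classes kept their call under each alternative tried. Each interaction holds the spleen GFP-negative arrays, in which 13 of 14 myeloid markers had a mean over the filter value, against 4 in spleen GFP-positive arrays; the part of this in the interactions was not tested.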

How the results depend on the processing

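In BCR-ABL1 cells the count of 0 members called became 2 when the 4 BCR-ABL1 arrays were fitted by themselves, and in no other alternative. Probe sets called there over the whole array numbered 756, 2159 in that fit, and 197 to 1091 without 1 array each (197 and 214 without BCR-ABL1 GFP-positive replicates 1 and 2, 225 and 262 without the GFP-negative ones, 503 and 502 without the spleen GFP-positive ones). In the spleen 46 or 47 of 47 genes were called under every alternative (46 to 47 without 1 array each; 19360 to 21340 of all), for the interaction 45 to 47 (16940 to 19759 of all), and between GFP-negative groups 46 or 47 (47 without any 1 array; 19353 to 21426 of all). Between GFP-positive groups the count of 14 became 23 on the 4 GFP-positive arrays alone and 6 to 23 without 1 array each (8132 to 14472 of all). With each gene's brightest probe set, or their mean, fewer features were tested, and 9426 and 9581 were called in the spleen, 8439 and 8651 for the interaction, 6149 and 6060 between GFP-positive groups and 9589 and 9812 between GFP-negative groups. With the mean of probe sets the values between GFP-positive groups changed sign in 9 genes, since other probe sets of each gene enter: Plk4 (-0.29, adjusted p = 0.047) and Top2a (-0.048, adjusted p = 0.629), called in 1 of the 2 fits, and 7 called in neither. After a shift to equal medians Pttg1 turned in the spleen (0.0805, adjusted p = 0.167); the cause was not tested. The median of all tested probe sets in the spleen was 0.17, 0.35 on the deposited scale and 0.51 after that shift, and of the 47 genes 3.48, 3.86 and 4.02. Higher probe sets were 57.4% of the spleen calls, 71.1% after the shift. For the interaction the shares were 42.3% and 28.4%, and between GFP-negative groups 57.6% and 70.6%. With the replicate block 0, 47, 47, 15 and 47 of 47 genes were called in BCR-ABL1, the spleen, the interaction, between GFP-positive and between GFP-negative groups, and Cdc25b gained its interaction (adjusted p = 0.0352), as in 3 other alternatives. Same-numbered arrays deviated together weakly (r = 0.11 across probe sets in BCR-ABL1, 0.272 in the spleen, 0.237 in GFP-positive and 0.162 in GFP-negative groups); nothing in the labels says what a number shares. Signals near the floor limit the folds of Nek2, Bub1, Espl1, Nuf2, Hmmr, Cenpf and Anln, and of Cdkn3, Mybl2 and Kif15. Hmmr had 6.96 with a floor of 16 and 5.71 with a floor of 64.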
